A study of Mus musculus with 16 samples.

Results

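The genes described here carry glucose carbon into and through glycolysis and the pentose phosphate pathway, or belong to the cellular response to low oxygen. They were 37 gene symbols taken as a set from these pathways, out of 30386 genes in the deposited table, and they occupied 38 rows because *Aldoa* had more than 1 gene identifier. The study compared cultured neural stem/progenitor cells (NSPCs) from the subventricular zone (SVZ), a germinal region of the adult mouse brain, after constitutive expression of a transgene. The 8 *Dbx2*-NSPC samples carried a mouse *Dbx2* transgene, which encodes a homeobox transcription factor, and the 8 *GFP*-NSPC samples carried a control *GFP* transgene. Both groups were derived from C57BL/6 J/Babr mice of 3 months of age, transfected with the plasmid *pTP6-Dbx2* or *pTP6-hrGFP*, selected and kept with puromycin as bulk cultures, and grown without adhesion in medium with glucose, EGF, FGF2 and heparin. The study's methods name 2 pairs of transgenic lines with 4 experiments each, so the 8 samples of a group come from few lines, and the labels give a replicate number from 1 to 8 but not the line. *Dbx2* itself ran from 30.7 to 171 CPM in *GFP*-NSPCs and from 114 to 232 CPM in *Dbx2*-NSPCs (log2 fold change, called log2 change from here, 1.26, adjusted p = 0.00978 with limma, fitted to all samples unless stated), and the table does not tell the transgene from the endogenous gene.

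Glucose enters cells through facilitative transporters, is trapped by hexokinases, and is split by glycolysis into pyruvate. Pyruvate is either reduced to lactate or passed to mitochondria through pyruvate dehydrogenase, which its kinases switch off, while the pentose phosphate pathway diverts glucose 6-phosphate to make NADPH and ribose. When oxygen falls, prolyl hydroxylases stop marking hypoxia-inducible factor for destruction, and the factor binds short motifs with the core ACGTG near genes of glucose uptake, glycolysis and vessel growth. Proliferating neural progenitors are known for high glycolytic activity.

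A gene's level is given in CPM, its read count scaled to the same total in every sample, from libraries that read the end of each transcript. The samples held 1803928 to 3293285 reads, and 3 reads, taken as the floor, were worth 0.911 to 1.66 CPM, which covers counting error only. Of the 38 rows, 34 passed the filter of more than 1 CPM in at least 4 samples. The other rows, those of *Ndrg1*, *Slc16a3*, *Ankrd37* and the second *Aldoa* identifier, did not exceed 1.41 CPM in any sample and were not tested. The cultures held the transcripts of neural progenitors, with 5944 to 7400 CPM in *GFP*-NSPCs and 4817 to 6286 CPM in *Dbx2*-NSPCs over 9 markers. Microglial markers summed to at most 2.89 CPM over 8 genes, with *Aif1* and *Tmem119* at 0 in every sample. Within the progenitor list *Gfap* was higher in *Dbx2*-NSPCs (log2 change 3.31, adjusted p = 3.54e-04), and *Slc1a3*, *Fabp7* and *Egfr* were lower by 1.03, 0.72 and 0.45 on the log2 scale (adjusted p = 0.0259, 0.0149 and 0.00433). *Sox2* of the same list had a log2 change of -0.37 and was called with the replicate number as a block (adjusted p = 5.08e-04) but not without it (0.181). In bulk samples, a change in the number of cells of a type and a change in RNA per cell cannot be told apart.

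Of the 34 tested genes, 3 were higher and 1 was lower in *Dbx2*-NSPCs at an adjusted p under 0.05, with limma on log2(CPM + 0.5) and adjustment over all 12533 tested genes. The 4 called genes are 11.8% of the tested members, below the 15.8% of all tested genes that were called, 8.03% higher and 7.78% lower. The higher genes were *Pdk3*, a kinase that switches off pyruvate dehydrogenase, *Pkm*, the pyruvate kinase of the last step of glycolysis, and *G6pdx*, the enzyme that commits glucose 6-phosphate to the pentose phosphate pathway. The lower gene was *Slc2a1*, which encodes the glucose transporter GLUT1. The median log2 change of the 34 members was 0.01, against -0.02 over all tested genes, with 18 positive and 16 negative values. At an unadjusted p under 0.05 there were 10 members, or 29.4%, against 29.2% of all tested genes. The groups did not overlap for *Slc2a1* and *Pdk3*, where 3.41% of all tested genes showed no overlap. Within numbers 1 to 4 there was no overlap for 8 members, or 23.5%, against 19.6% of all tested genes, and within numbers 5 to 8 for 13, or 38.2%, against 24.8%. *Eno1* and *Pgd*, which lie near each other on chromosome 4 and moved with their neighbours there, are in both of these counts.

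**Figure D1:**
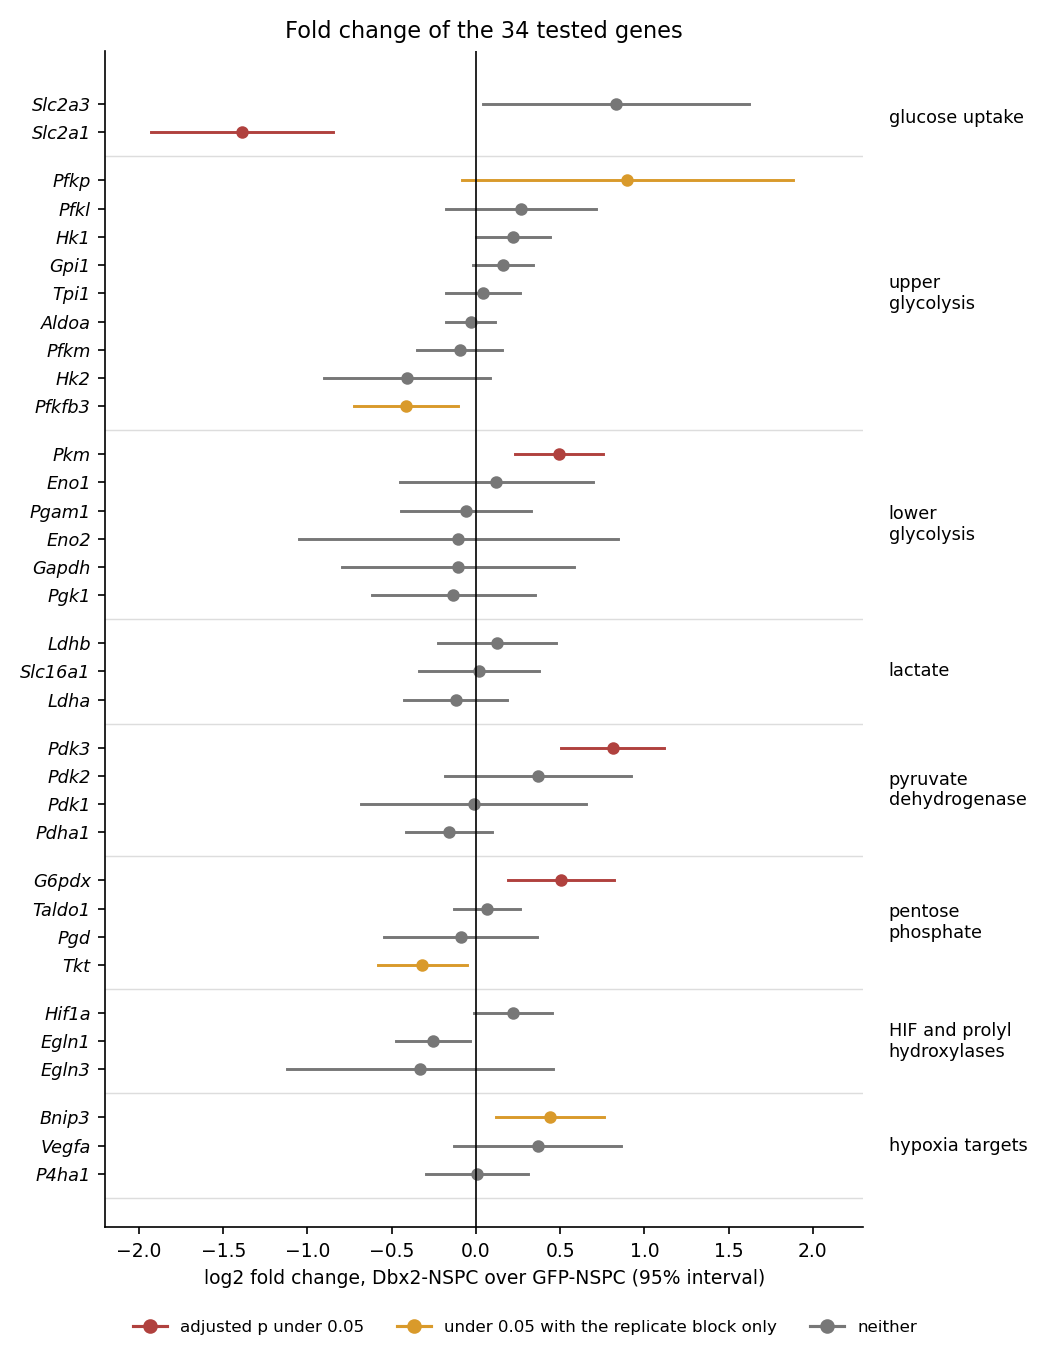
Log2 change of *Dbx2*-NSPCs over *GFP*-NSPCs with its 95% interval (limma, 8 against 8 samples) for the 34 tested genes, grouped by role. The 4 genes in red passed the adjusted threshold of 0.05, the 4 in amber passed it with the replicate number as a block and not without it, and the intervals of most others span 0.

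The replicate numbers were also fitted as a block. Same-numbered samples correlated at 0.152 to 0.303 in their deviations from the group means, but at -0.007 to 0.119 within numbers 1 to 4 and 5 to 8. The same-numbered sample was the best match in 4 of 8 pairs, so pairing by number is an assumption. Counts of pairs given below rest on it, and the share of all tested genes with such counts was not computed. With the block, 8 of the 34 members were called, or 23.5%, against 21.7% of all tested genes (10.8% higher, 10.9% lower). The added genes were *Bnip3* and *Pfkp*, which were higher, and *Pfkfb3* and *Tkt*, which were lower. A covariate for the samples numbered 1 to 4 and 5 to 8 also gave 8 calls (background 24.2%, with 12% higher and 12.2% lower). In numbers 1 to 4 alone 8 members were called, 7 of them higher (background 15.6% and 8.19%). In numbers 5 to 8 alone 9 were called, 5 of them lower (background 23.2% and 11.7%). The counts of both sets include *Eno1* and *Pgd*. On the recovered whole reads, edgeR and DESeq2 called 5 members each (background 15.4% and 17.5%), adding *Bnip3* to the 4. Of the tested members 6 were called without *GFP*-NSPC replicate 1 (background 17.6%) and 6 without *Dbx2*-NSPC replicate 4 (background 15.8%), with 2 lower in each case (background 9% and 7.58%).

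The promoters of the called genes were read for the ACGTG core, since it is the letters that hypoxia-inducible factor is known to recognise. RefSeq promoter windows on GRCm38.p6 were matched for 35 of the 37 symbols. ACGTG stood on either strand in the 250 bases before the start of 20 of these 35 genes, or 57.1%, against 25.4% of tested genes and 18.5% of all genes with a window. These letters also lie inside the E-box CACGTG, which other factors bind. Among the called genes, *Slc2a1*, *Pdk3* and 1 of the windows of *Pkm* held the motif, and *G6pdx* did not. Among the tested genes that were not called, 15 of 29 held it. A gene was counted if any of its windows held the motif. By window, ACGTG stood in 46% of the member windows and in 16.6% of all 32851 windows. The alternative core GCGTG stood in 54% of the member windows and in 28.2% of all 32851 windows. The members were taken from pathways known to hold targets of the factor, so these shares are a description and not a test. The 30 bases around each match are shown in the reading direction of the gene, with the matched letters in capitals, ACGTG or its reverse complement CACGT. The display is of called genes, so it was chosen by their values, and *Pdk3* was added after its values had been seen. Each match ends after the first base of its window that lies in an exon annotated in GENCODE M21.
Slc2a1, chr4:119108696-119108725, plus strand: agtcccgccccggACGTGctccccaggccc
Pkm, chr9:59657139-59657168, plus strand: cctccgatccggtCACGTccgcgccgcagc
Pdk3, chrX:93832187-93832216, minus strand: acgcgcgccgcgtACGTGcggcggcagatc
The match of *Pkm* lies inside the annotated gene, and the *Pkm* window that spans the annotated start held none. The motif was thus present in *Slc2a1*, which fell, and in *Pdk3* and 1 window of *Pkm*, which rose, but not in *G6pdx*, which also rose. No match is a measurement of binding, and a role of the factor was not tested.

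The transporters of glucose uptake, *Slc2a1* and *Slc2a3*, gave values of opposite sign. *Slc2a1* (ENSMUSG00000028645), at chr4:119108711-119137983 on GRCm38, stood at 36.66, 24.34, 41.71, 47.65, 46.55, 57.66, 58.74 and 61.28 CPM in *GFP*-NSPC replicates 1 to 8. In *Dbx2*-NSPC replicates 1 to 8 it stood at 19.26, 18.21, 17.58, 5.02, 17.25, 23.61, 21.67 and 23.63 CPM. Every *Dbx2*-NSPC sample was below every *GFP*-NSPC sample, though the highest *Dbx2*-NSPC value and the lowest *GFP*-NSPC value were close. The mean was 46.8 ± 12.6 CPM (SD, n = 8) in *GFP*-NSPCs and 18.3 ± 5.94 CPM (SD, n = 8) in *Dbx2*-NSPCs. The log2 change was -1.39 (standard error 0.26, adjusted p = 9.58e-04), a 2.62-fold lower level. Replicate 4 of *Dbx2*-NSPCs lay far below its group, and without it the log2 change was -1.15 (adjusted p = 1.34e-04). In the samples numbered 1 to 4 it was -1.42 and in those numbered 5 to 8 it was -1.36, with adjusted p = 0.0224 and 1.04e-05. *Slc2a1* overlaps *Gm12867* and *Gm12868* on the opposite strand, which were at 0 CPM. The strand used in counting is not given in the sources used here, so the reads of overlapping genes cannot be told apart.

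*Slc2a3*, which encodes the high-affinity transporter GLUT3, ran from 0.82 CPM through a median of 5.36 to 9.45 CPM in *GFP*-NSPCs and from 5.54 through 6.62 to 13.4 CPM in *Dbx2*-NSPCs. The groups overlapped and the log2 change of 0.83 (95% interval 0.04 to 1.62) did not pass (adjusted p = 0.150). Among the *GFP*-NSPC samples, replicates 1 to 4 held 6.85 to 9.45 CPM and replicates 5 to 8 held 0.82 to 3.88 CPM, in part at or below the floor. In numbers 1 to 4 the log2 change was -0.24 (adjusted p = 0.549) and in numbers 5 to 8 it was 1.90 (adjusted p = 0.00374). The test of the difference between these effects gave 2.15 (standard error 0.49, adjusted p = 0.00422). The neuronal markers *Dcx* and *Rbfox3* were also low in *GFP*-NSPC replicates 5 to 8, at 0 to 0.82 and 0.31 to 1.64 CPM, against 3.52 to 5.42 and 4.93 to 14.9 CPM in *Dbx2*-NSPC replicates 5 to 8. In numbers 1 to 4 the order was the other way, with 1.61 to 6.84 and 3.17 to 8.66 CPM in *GFP*-NSPCs and 0 to 0.33 and 0.36 to 1.93 CPM in *Dbx2*-NSPCs. Their effects differed between the sets (adjusted p = 3.26e-07 and 3.90e-06, limma interaction). For the rest of the neuronal list, *Tubb3*, *Snap25* and *Syt1*, a difference was not called (adjusted p = 0.959, 0.157 and 0.299, limma interaction). *Tubb3* had log2 changes of 0.11 in numbers 1 to 4 and 0.06 in numbers 5 to 8. Those of *Snap25* were -1.56 and 0.12, and those of *Syt1* -0.97 and 0.57. The part of neuronal transcripts in the values of *Slc2a3* was not tested.

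**Figure D2:**
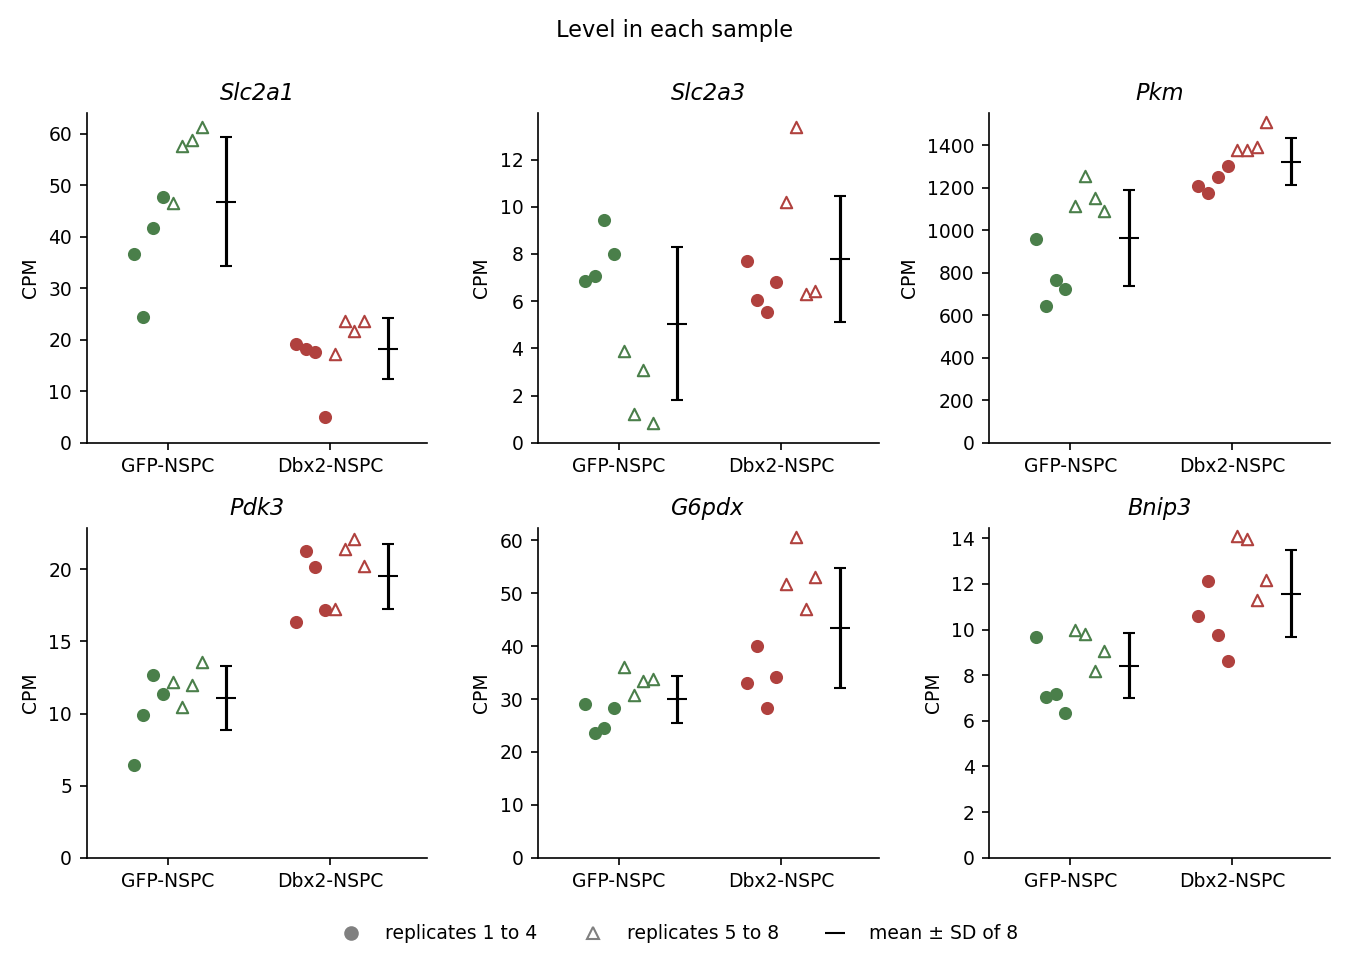
Level in CPM of *Slc2a1*, *Slc2a3*, *Pkm*, *Pdk3*, *G6pdx* and *Bnip3* in each of the 16 samples, with filled circles for replicates 1 to 4, open triangles for replicates 5 to 8, and the mean ± SD of 8 in black. *Slc2a1* and *Pdk3* do not overlap between the groups, while *Slc2a3* differs between groups in the triangles.

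In upper glycolysis, from hexokinase to triose phosphate isomerase, none of 9 genes was called by limma without the block, and *Pfkp* and *Pfkfb3* were called with it. At an unadjusted p under 0.05 there were 2 of the 9 (29.2% of all tested genes). The count models edgeR and DESeq2 called 0 (15.4% and 17.5% of all tested genes). *Pfkp*, the platelet-type subunit of phosphofructokinase, ran from 4.11 CPM through 11.1 to 23.98 CPM in *GFP*-NSPCs and from 5.40 through 20.5 to 49.8 CPM in *Dbx2*-NSPCs. The groups overlapped widely, and with the assumed pairing the *Dbx2*-NSPC sample was higher in 8 of 8 same-numbered pairs. Its log2 change was 0.90 (95% interval -0.08 to 1.88), with adjusted p = 0.214 without the block and 0.00379 with it. *Pfkp* overlaps *Pitrm1* on the opposite strand, whose mean level was 52.2 CPM.

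*Pfkfb3*, which makes fructose 2,6-bisphosphate, the activator of phosphofructokinase, ran from 72.0 through 88.9 to 128 CPM in *GFP*-NSPCs and from 45.6 through 69.9 to 98.5 CPM in *Dbx2*-NSPCs. It was lower in the *Dbx2*-NSPC sample of all 8 pairs, with a log2 change of -0.41 and adjusted p = 0.0641 without the block and 0.00585 with it. The log2 change was -0.45 without *GFP*-NSPC replicate 1 (adjusted p = 0.0487).

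The other subunits of phosphofructokinase were not called over all samples. *Pfkm*, the muscle type, ran from 42.4 through 54.9 to 71.3 CPM in *GFP*-NSPCs and from 42.2 through 48.7 to 70.0 CPM in *Dbx2*-NSPCs (log2 change -0.09, adjusted p = 0.655). It overlaps *Senp1* on the opposite strand and *Gm26513* on its own strand, whose mean levels summed to 50.2 CPM. *Pfkl*, the liver type, ran from 11 through 21.5 to 27.2 CPM in *GFP*-NSPCs and from 15.8 through 25.1 to 33.1 CPM in *Dbx2*-NSPCs (log2 change 0.27, adjusted p = 0.435). This value averages over log2 changes of opposite sign: *GFP*-NSPCs held 14.3 ± 3.29 CPM and *Dbx2*-NSPCs 28.9 ± 3.44 CPM (SD, n = 4) in numbers 1 to 4, while the values were 25.9 ± 0.99 and 18.8 ± 4.04 CPM (SD, n = 4) in numbers 5 to 8. The groups overlapped in neither set of numbers.

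Among the hexokinases, which phosphorylate glucose, *Hk1* ran from 71.5 through 89.0 to 104 CPM in *GFP*-NSPCs and from 85.1 through 101 to 145 CPM in *Dbx2*-NSPCs (log2 change 0.22, adjusted p = 0.170). *Hk2*, the form known to be induced by hypoxia-inducible factor, ran from 15.0 through 20.1 to 28.8 CPM in *GFP*-NSPCs and from 6.34 through 18.3 to 23.1 CPM in *Dbx2*-NSPCs (log2 change -0.41, adjusted p = 0.266). Both genes overlapped between the groups over all samples. In numbers 5 to 8 alone *Hk2* was lower without overlap, by 0.96 on the log2 scale (adjusted p = 0.0321), but the difference between the effects in the sets of numbers was not called (adjusted p = 0.0538).

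*Gpi1*, the isomerase that follows hexokinase, ran from 349 through 415 to 498 CPM in *GFP*-NSPCs and from 424 through 446 to 521 CPM in *Dbx2*-NSPCs, with a log2 change of 0.16 (adjusted p = 0.214). The log2 changes of *Aldoa* and *Tpi1*, which split fructose 1,6-bisphosphate and interconvert its triose products, were -0.03 and 0.04. The last 300 bases of *Aldoa* transcripts share a stretch of 50 bases with 6 other annotated genes, those of *Tpi1* with 2 and those of *Gpi1* with 1, so reads could be split between them. *Tpi1* also overlaps *Spsb2* on the opposite strand, whose mean level was 12.9 CPM.

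In lower glycolysis, *Pkm* (ENSMUSG00000032294), at chr9:59656368-59679375, was the called gene among 6. Its level was 642.62 to 956.41 CPM in *GFP*-NSPC replicates 1 to 4 and 1090.62 to 1253.88 CPM in replicates 5 to 8. In *Dbx2*-NSPCs it was 1174.55 to 1299.59 CPM in replicates 1 to 4 and 1375.19 to 1508.90 CPM in replicates 5 to 8. The groups overlapped over all samples but not within either set of numbers, and the *Dbx2*-NSPC sample was higher in 8 of 8 pairs. The mean was 962 ± 227 CPM in *GFP*-NSPCs against 1323 ± 111 CPM in *Dbx2*-NSPCs (SD, n = 8), a log2 change of 0.49 (standard error 0.12, adjusted p = 0.0103). The table has 1 value for *Pkm*, so the spliced forms PKM1 and PKM2 are not told apart, and 5 other annotated genes share a stretch of the end of its transcripts.

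The steps before pyruvate kinase were not called. *Eno1*, the main enolase, ran from 16.6 through 34.3 to 56.0 CPM in *GFP*-NSPCs and from 23.0 through 32.8 to 60.1 CPM in *Dbx2*-NSPCs (log2 change 0.12, adjusted p = 0.812). *Eno2*, the neuronal enolase, ran from 0.41 through 3.80 to 10 CPM in *GFP*-NSPCs and from 0.65 through 3.50 to 5.14 CPM in *Dbx2*-NSPCs, partly below the floor (log2 change -0.10, adjusted p = 0.908). Its log2 change was -1.10 in numbers 1 to 4 (adjusted p = 0.157) and 0.89 in numbers 5 to 8 (adjusted p = 0.206). The groups overlapped in both sets. Unlike for *Dcx* and *Rbfox3*, the difference between these effects was not called (adjusted p = 0.0762, limma interaction). The part of neuronal transcripts in the values of *Eno2* was not tested. The log2 changes of *Gapdh*, *Pgk1* and *Pgam1* were, in turn, -0.11, -0.13 and -0.06. *Gapdh*, often used as a reference transcript, was at 11.1 CPM in *Dbx2*-NSPC replicate 4 and at 53.1 to 111 CPM in the other samples, and without that sample its log2 change was 0.25 (adjusted p = 0.261). Its transcript end is shared with 172 other annotated genes, and it overlaps *Iffo1* on the opposite strand (mean level 42.4 CPM), so its level here is uncertain.

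None of the 3 tested genes of lactate metabolism was called over all samples by limma, edgeR or DESeq2 (background 15.8%, 15.4% and 17.5%). With limma 0 had an unadjusted p under 0.05 (background 29.2%). *Ldha*, the subunit of lactate dehydrogenase that favours lactate, ran from 155 through 223 to 318 CPM in *GFP*-NSPCs and from 160 through 199 to 237 CPM in *Dbx2*-NSPCs (log2 change -0.12, adjusted p = 0.636). *GFP*-NSPCs held 249 to 318 CPM in replicates 5 to 8 and 155 to 197 CPM in replicates 1 to 4, so that *Dbx2*-NSPCs were lower by 0.38 on the log2 scale in numbers 5 to 8 (adjusted p = 0.00563), and the log2 change in numbers 1 to 4 was 0.14 (adjusted p = 0.435). The difference between these effects was -0.53 (standard error 0.15, adjusted p = 0.0196). *Ldhb*, the subunit that favours pyruvate, ran from 52.6 through 82.0 to 122 CPM in *GFP*-NSPCs and from 65.7 through 78.9 to 118 CPM in *Dbx2*-NSPCs (log2 change 0.12, adjusted p = 0.680). *Slc16a1*, which encodes the monocarboxylate transporter MCT1, had a log2 change of 0.02, with a 95% interval of -0.34 to 0.37. *Slc16a3*, which encodes the lactate exporter MCT4, was at 0 CPM in every *Dbx2*-NSPC sample and at 0 to 1 CPM in *GFP*-NSPCs, so no difference was detectable at this depth. The transcript end of *Ldha* is shared with 13 other annotated genes.

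At the entry of pyruvate into mitochondria, *Pdk3* (ENSMUSG00000035232), at chrX:93764607-93832201, was called among 4 genes. It stood at 6.45, 9.88, 12.71, 11.33, 12.19, 10.43, 11.95 and 13.57 CPM in *GFP*-NSPC replicates 1 to 8. In *Dbx2*-NSPC replicates 1 to 8 it stood at 16.37, 21.25, 20.19, 17.22, 17.25, 21.43, 22.12 and 20.26 CPM. The lowest *Dbx2*-NSPC value was above the highest *GFP*-NSPC value. The mean was 11.1 ± 2.21 CPM in *GFP*-NSPCs against 19.5 ± 2.23 CPM in *Dbx2*-NSPCs (SD, n = 8), and the log2 change was 0.81 (standard error 0.15, adjusted p = 7.46e-04), a 1.75-fold higher level. In numbers 1 to 4 it was 0.89, and in numbers 5 to 8, 0.73.

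The other kinases were not called. *Pdk1*, known as a target of hypoxia-inducible factor, ran from 2.22 through 4.46 to 6.83 CPM in *GFP*-NSPCs and from 1.41 through 5.26 to 8.03 CPM in *Dbx2*-NSPCs, with a log2 change of -0.01 (95% interval -0.68 to 0.65) whose sign turned under other scalings. *Pdk2* ran from 9.42 through 18.5 to 34.7 CPM in *GFP*-NSPCs and from 11.7 through 24.1 to 34.5 CPM in *Dbx2*-NSPCs (log2 change 0.37, adjusted p = 0.380). *Pdha1*, the catalytic subunit of pyruvate dehydrogenase, had a log2 change of -0.16 (adjusted p = 0.413).

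In the pentose phosphate pathway, *G6pdx* (ENSMUSG00000031400), at chrX:74409483-74429194, was called among 4 genes. Its level was 29.01, 23.63, 24.44, 28.33, 36.02, 30.67, 33.47 and 33.72 CPM in *GFP*-NSPC replicates 1 to 8. The *Dbx2*-NSPC replicates 1 to 8 held 33.07, 40.06, 28.33, 34.09, 51.74, 60.57, 46.95 and 53.01 CPM. All same-numbered pairs were higher in *Dbx2*-NSPCs, and the groups overlapped in numbers 1 to 4 but not in numbers 5 to 8. The mean was 29.9 ± 4.44 CPM in *GFP*-NSPCs against 43.5 ± 11.3 CPM in *Dbx2*-NSPCs (SD, n = 8), a log2 change of 0.50 (standard error 0.15, adjusted p = 0.0279). It did not pass in numbers 1 to 4 alone (log2 change 0.35, adjusted p = 0.152), and the difference between the sets of numbers was not called (adjusted p = 0.408). *G6pdx* overlaps *Ikbkg* on the opposite strand, with a mean level of 12.6 CPM, and shares its transcript end with *G6pd2*.

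*Tkt*, the transketolase of the non-oxidative branch, ran from 223 through 319 to 416 CPM in *GFP*-NSPCs and from 205 through 249 to 348 CPM in *Dbx2*-NSPCs. It was lower in *Dbx2*-NSPCs in 7 of 8 pairs, with a log2 change of -0.32 and adjusted p = 0.0987 without the block and 0.0120 with it. *Taldo1*, the transaldolase of the same branch, had a log2 change of 0.07 (adjusted p = 0.691). *Pgd*, which follows *G6pdx* in the oxidative branch, ran from 44.0 through 81.2 to 117 CPM in *GFP*-NSPCs and from 49.97 through 76.9 to 110 CPM in *Dbx2*-NSPCs, with a log2 change of -0.09 (adjusted p = 0.825).

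Of the factor and its hydroxylases, none of 3 genes was called by limma, edgeR or DESeq2 (background 15.8%, 15.4% and 17.5%). With limma 1 had an unadjusted p under 0.05 (background 29.2%). *Hif1a*, the regulated subunit of hypoxia-inducible factor, ran from 68.3 through 85.0 to 95.8 CPM in *GFP*-NSPCs and from 71.8 through 94.2 to 123 CPM in *Dbx2*-NSPCs (log2 change 0.22, adjusted p = 0.196). *Egln1*, the main prolyl hydroxylase, ran from 59.3 through 78.5 to 86.3 CPM in *GFP*-NSPCs and from 47.7 through 64.3 to 80.0 CPM in *Dbx2*-NSPCs, with a log2 change of -0.25 (adjusted p = 0.112). The *Dbx2*-NSPC sample held less *Egln1* in 7 of 8 pairs. *Egln3*, a hydroxylase that is itself hypoxia-induced, had a log2 change of -0.33 with a 95% interval of -1.12 to 0.45.

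Of the hypoxia targets, 3 of 5 were tested, and *Bnip3* was the gene that some of the fits called. *Bnip3*, which takes part in the removal of mitochondria, ran from 6.33 through 8.62 to 9.97 CPM in *GFP*-NSPCs and from 8.61 through 11.7 to 14.1 CPM in *Dbx2*-NSPCs. It was higher in *Dbx2*-NSPCs in 8 of 8 pairs, with a log2 change of 0.44 (standard error 0.15) and adjusted p = 0.0563 without the block and 0.0444 with it. Fitted to the recovered reads, the adjusted p was 0.0363 with edgeR and 0.0424 with DESeq2. *Vegfa*, the vascular growth factor, had a log2 change of 0.37 (95% interval -0.13 to 0.86), and *P4ha1*, a collagen prolyl hydroxylase, had 0.01 (95% interval -0.30 to 0.31). *Ndrg1* and *Ankrd37* were at or near the floor in both groups.

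The mean log2(CPM + 0.5) over the tested genes of a role is a score per sample, described here without a test because the genes were chosen with results known. Over all 34 members it was 5.46 ± 0.08 in *GFP*-NSPCs against 5.51 ± 0.16 in *Dbx2*-NSPCs (SD, n = 8). The upper glycolysis score was 6.12 ± 0.06 in *GFP*-NSPCs against 6.19 ± 0.24 in *Dbx2*-NSPCs, and its spread in *Dbx2*-NSPCs lay between the sets of numbers. In numbers 1 to 4 it was 6.35 to 6.45 in *Dbx2*-NSPCs and 6.10 to 6.19 in *GFP*-NSPCs, and in numbers 5 to 8 it was 5.86 to 6.06 and 6.03 to 6.17. Other roles were split as well. The pentose phosphate score of *Dbx2*-NSPCs less *GFP*-NSPCs was 0.21 in numbers 1 to 4 and -0.13 in numbers 5 to 8. In the same order it was -0.83 and 0.27 for glucose uptake and 0.42 and 0.08 for pyruvate dehydrogenase and its kinases. In numbers 1 to 4 the groups did not overlap in these roles. The differences were 0.03 and 0.04 in lower glycolysis. The score of pyruvate dehydrogenase and its kinases was 4.31 ± 0.21 in *GFP*-NSPCs against 4.56 ± 0.36 in *Dbx2*-NSPCs. The score of the tested hypoxia targets was 3.88 ± 0.26 and 4.15 ± 0.22 in the same order, and that of lactate metabolism was 6.72 ± 0.14 and 6.73 ± 0.19. Over all samples, all of these role scores overlapped between the groups.

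**Figure D3:**
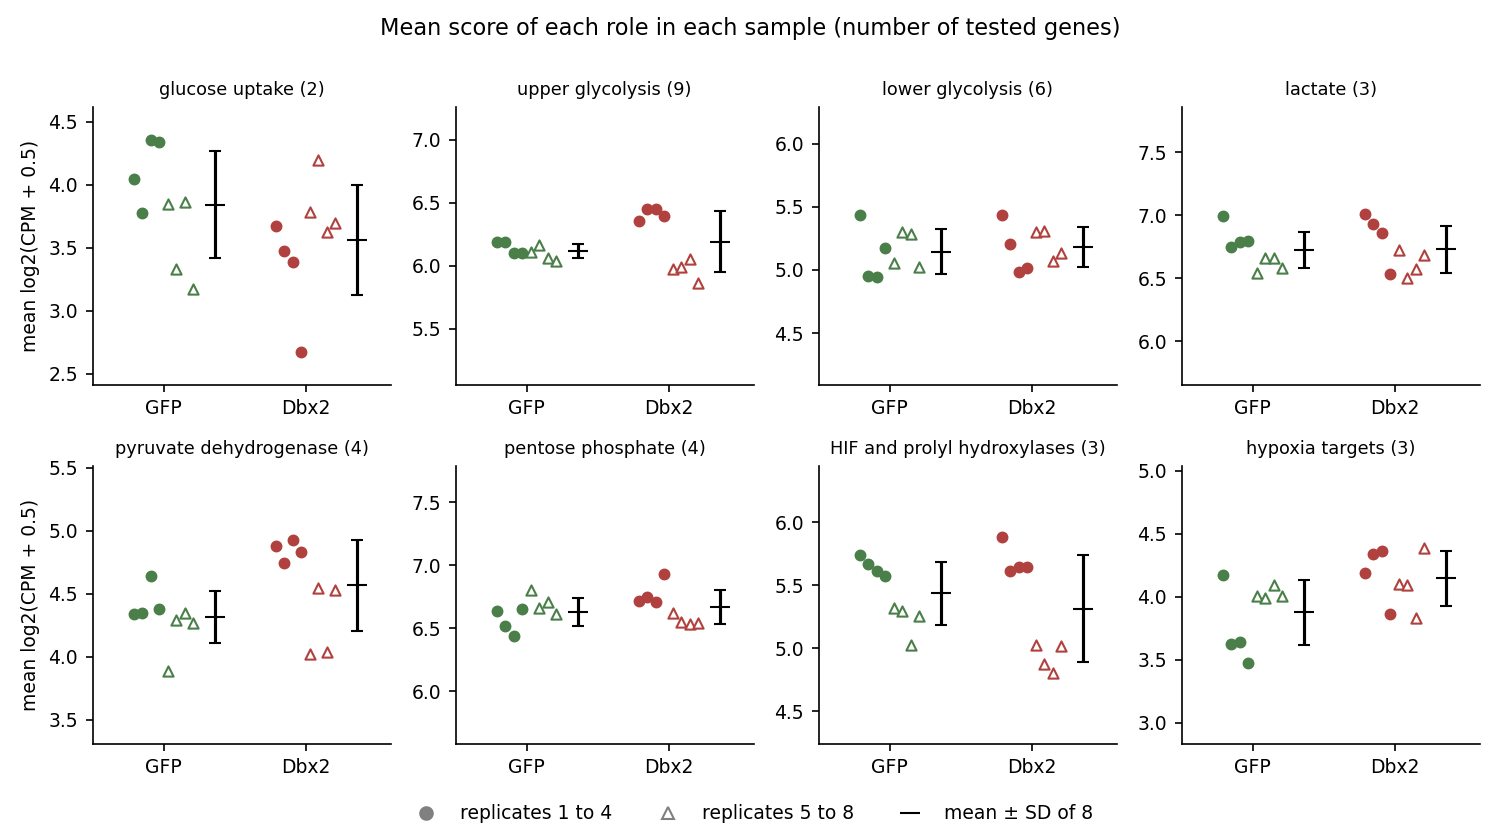
Mean log2(CPM + 0.5) over the tested genes of each role in each sample, with the number of tested genes in parentheses, filled circles for replicates 1 to 4, open triangles for replicates 5 to 8, and the mean ± SD of 8 in black. Each panel spans the same height on the log2 scale, and the circles of *Dbx2*-NSPCs lie above those of *GFP*-NSPCs in upper glycolysis while its triangles lie mostly below those of *GFP*-NSPCs. The circles of the groups are also apart in glucose uptake, pentose phosphate, and pyruvate dehydrogenase and its kinases.

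Whether the effect of the transgene differed between numbers 1 to 4 and 5 to 8 was tested for every gene with an interaction term. It differed for 5 of the 34 members, or 14.7%, against 9.44% of all tested genes. They were *Slc2a3* and *Ldha*, described above, and *Eno1*, *Pgd* and *Pfkl*, which were higher in *Dbx2*-NSPCs in one set of numbers and had negative fold changes in the other. *Eno1* and *Pgd* lie near each other on chromosome 4, and of the 50 neighbours of each the effect differed for 34. They are therefore not separate cases in this count, which was not read as an excess among the members. *Pfkl* had a log2 change of 1.01 in numbers 1 to 4 (adjusted p = 0.00468) and of -0.47 in numbers 5 to 8 (adjusted p = 0.0580), a difference of -1.48 (standard error 0.26, adjusted p = 3.16e-04). *Slc2a1*, *Pdk3* and *Pkm* were called in the same direction in both sets of numbers. A difference between the sets was not called for them, with adjusted p = 0.961, 0.807 and 0.0802. Which set of numbers belongs to which line is not in the labels, so line, experiment and number cannot be told apart.

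**Figure D4:**
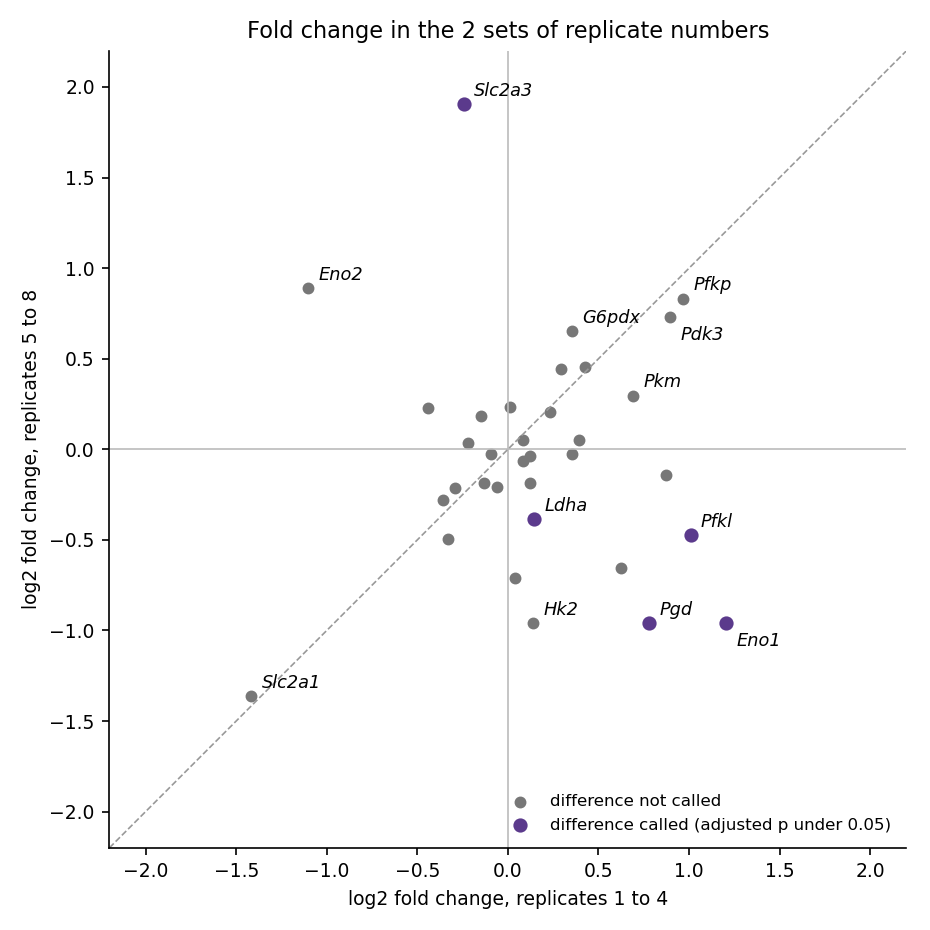
Log2 change of *Dbx2*-NSPCs over *GFP*-NSPCs in replicates 1 to 4 (horizontal) and in replicates 5 to 8 (vertical) for the 34 tested genes, with equality as a dashed line and genes whose effects differed in purple. *Slc2a1*, *Pdk3* and *Pfkp* lie near the dashed line, while *Eno1*, *Pgd* and *Pfkl* lie in the lower right quadrant.

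*Eno1* and *Pgd* lie near each other on chromosome 4, at chr4:150236721-150248879 and chr4:149149991-149166771. *Eno1* was at 26.59, 23.28, 16.62 and 18.0 CPM in *GFP*-NSPC replicates 1 to 4 and at 38.53, 60.09, 52.43 and 45.57 CPM in the *Dbx2*-NSPC replicates of the same numbers. In replicates 5 to 8 the order turned, with 48.21, 42.02, 56.01 and 45.65 CPM in *GFP*-NSPCs and 23.23, 27.02, 23.02 and 23.97 CPM in *Dbx2*-NSPCs. The groups overlapped in neither set, and the log2 changes were 1.21 (adjusted p = 0.00130) and -0.96 (adjusted p = 1.01e-04). *Pgd* followed the same pattern, with 44.0 to 67.3 CPM against 92.5 to 110 CPM in numbers 1 to 4 and 95.1 to 117 CPM against 49.97 to 61.2 CPM in numbers 5 to 8, *GFP*-NSPCs first. Its log2 changes were 0.78 (adjusted p = 0.00261) and -0.96 (adjusted p = 1.31e-05).

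The tested genes around them were then read in the same way, 25 on each side, a size chosen after the values had been seen. The median log2 change of the 50 neighbours of *Eno1*, in chr4:148160621-154008732, was 0.77 in numbers 1 to 4 and -0.95 in numbers 5 to 8. For the 50 neighbours of *Pgd*, many of them the same genes, the medians were 0.73 and -0.95. Around the other 32 tested members the neighbour medians ran from -0.20 to 0.095 in numbers 1 to 4 and from -0.42 to 0.13 in numbers 5 to 8. Less its neighbours, *Pgd* had log2 changes of 0.05 and -0.01 and *Eno1* of 0.44 and -0.01. *H6pd*, the pentose phosphate enzyme of the endoplasmic reticulum, and *Plod1*, a hypoxia-responsive collagen modifier, lie in the same stretch. *Plod1* had log2 changes of 1.44 in numbers 1 to 4 and -0.62 in numbers 5 to 8. *H6pd* stood at 0 to 3.85 CPM, in part below the floor, and its fitted log2 changes of 1.37 and -1.42 depend on the pseudocount. The values of *Eno1* and *Pgd* thus moved with those of their neighbours, and the part of the neighbours in them was not tested. *Slc2a1*, elsewhere on chromosome 4, had a neighbour median of -0.03 in numbers 1 to 4, far from its own value of -1.42. *Pfkl*, on chromosome 10, had neighbour medians of 0.07 and -0.37.

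**Figure D5:**
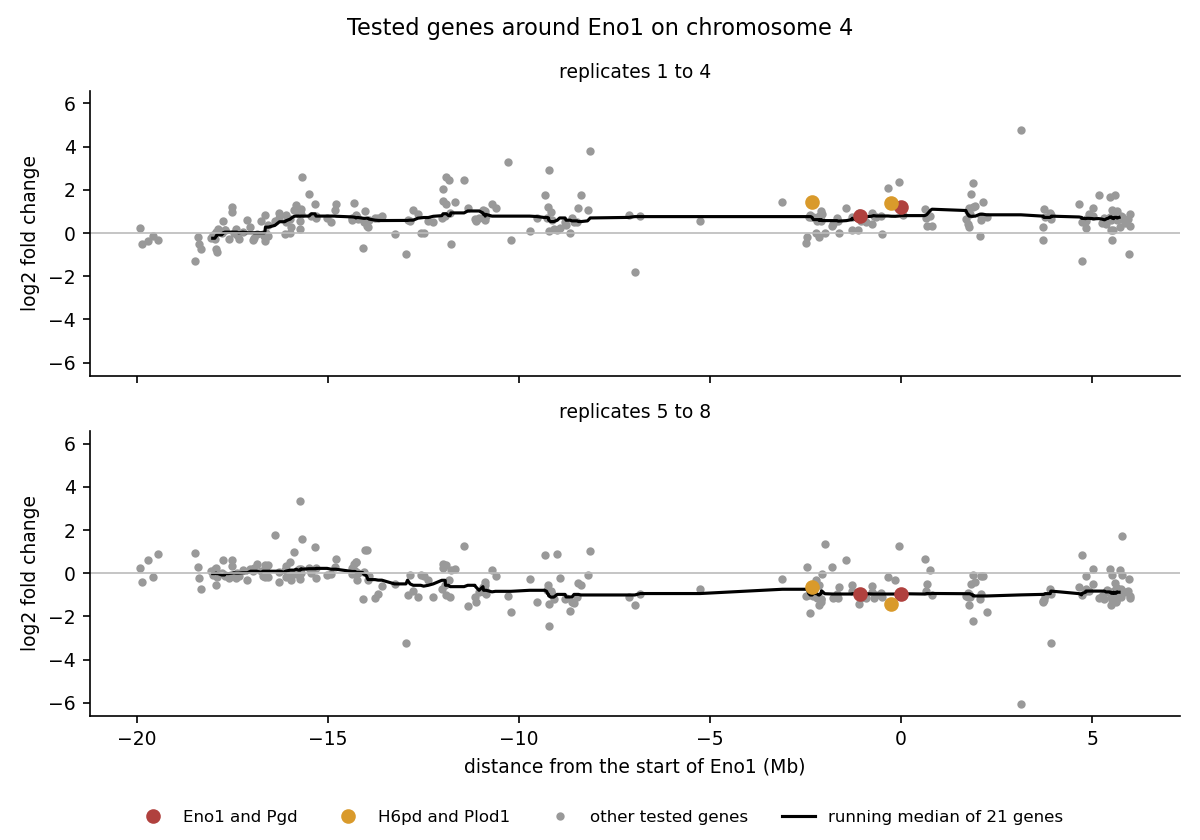
Log2 change of *Dbx2*-NSPCs over *GFP*-NSPCs for the tested genes within 20 Mb of *Eno1* on chromosome 4, against distance from its start in Mb, in replicates 1 to 4 (top) and 5 to 8 (bottom), with a running median in black. *Pgd* lies near the running median in both panels, and *Eno1* lies above it in the upper panel and near it in the lower one. The running median is above 0 in the upper panel and below 0 in the lower one over the same stretch.

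For related genes within a sample, 8 log2 ratios of (CPM + 0.5) were compared with exact permutation tests over 12870 splits of 8 against 8 samples (2-sided, p adjusted over the 8 ratios). The log2 ratio of *Slc2a3* to *Slc2a1* was -3.34 ± 1.43 in *GFP*-NSPCs against -1.12 ± 0.73 in *Dbx2*-NSPCs (SD, n = 8, exact permutation p = 3.11e-04, adjusted 0.00249). It was higher in *Dbx2*-NSPCs in 8 of 8 pairs, by 1.17 on average in numbers 1 to 4 and by 3.27 in numbers 5 to 8. Over all samples *Slc2a1* had the called log2 change of -1.39, while that of *Slc2a3*, 0.83, was not called. In numbers 1 to 4 the log2 change of *Slc2a3* was -0.24, so the higher ratio there came from *Slc2a1*. The pseudocount of 0.5 draws the ratio of a low gene such as *Slc2a3* or *Eno2* towards 0, and with pseudocounts of 0.1 and 2 the difference for *Slc2a3* to *Slc2a1* was 2.36 and 1.90 (adjusted 0.00249 in both, exact permutation). Within a set of numbers the exact test of 4 against 4 cannot give a p below 0.0286, and at least 5 of the 8 ratios would have to reach it for any to pass after adjustment. The *Pfkp* to *Pfkm* ratio was higher by 0.99, with an exact permutation p of 0.0693 (adjusted 0.185), and with the samples paired by number the adjusted p was 0.0313 (exact permutation). *Pfkp* and *Pfkm* both overlap genes on the opposite strand, whose reads cannot be told apart from theirs here. The *Hk2* to *Hk1* ratio was lower by 0.63 with an exact permutation p of 0.0263, which did not pass after adjustment (0.105). The differences of the other 5 ratios ran from -0.38 for *Pdk1* to *Pdk2* to 0.63 for *Pfkp* to *Pfkl*, with adjusted p of 0.431 to 0.755 (exact permutation).

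Other genes of the same pathways were read from lists drawn up with earlier results of these data known. Of 15 tested other genes of glycolysis, 1 was higher and 1 was lower, or 13.3% against the 15.8% of all tested genes. *Aldoc*, the brain aldolase, rose from 208 ± 47.5 CPM in *GFP*-NSPCs to 562 ± 148 CPM in *Dbx2*-NSPCs (SD, n = 8, log2 change 1.42, adjusted p = 5.11e-06). Its effect was larger in numbers 5 to 8 (2.02) than in numbers 1 to 4 (0.82), and the difference was called (adjusted p = 2.67e-06). *Adpgk*, an ADP-dependent glucokinase, was lower by 0.63 on the log2 scale (adjusted p = 0.0451, and 0.0568 with the block). Of 9 tested other pentose phosphate genes 1 was lower (11.1%), the ribose 5-phosphate isomerase *Rpia* (log2 change -0.66, adjusted p = 0.0464). Of 15 tested genes of pyruvate entry and transport 1 was lower (6.67%), *Pdhb*, a subunit of pyruvate dehydrogenase (log2 change -0.26, adjusted p = 0.0312). With the block 4 of these 15 were lower (26.7%, where the block called 21.7% of all tested genes), the additional genes being *Slc2a10* and *Slc2a13* of the glucose transporter family and *Slc16a6* of the monocarboxylate transporter family (adjusted p = 0.0155, 0.0469 and 0.0478 with the block, and 0.0544, 0.0910 and 0.0839 without it). *Slc2a10* stood at 10.5 to 18.5 CPM in *GFP*-NSPC replicates 5 to 8 and at no more than 1.01 CPM in all other samples, and its effect differed between the sets (adjusted p = 2.03e-04).

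Of 30 tested other hypoxia genes, 4 were higher and 1 was lower, with a median log2 change of 0.07. These 16.7% were near the 15.8% of all tested genes. *Hmox1*, the haem oxygenase that also responds to oxidative stress, rose from 13.6 ± 4.99 to 28.7 ± 3.25 CPM (SD, n = 8, log2 change 1.12, adjusted p = 2.60e-04). *Bhlhe40*, a transcription factor, and *Adm*, which encodes the vasodilator adrenomedullin, rose by 1.15 and 0.79 (adjusted p = 0.0189 and 5.82e-04). For *Bhlhe40*, numbers 1 to 4 gave 0.59 while numbers 5 to 8 gave 1.71, a difference that was called (adjusted p = 0.0137). The other called genes of this list were *Mif*, which was higher, and *Kdm4b*, which was lower. *Hif3a*, *Lox*, *Angptl4* and *Car9*, the last a carbonic anhydrase strongly induced by hypoxia, were at 0 in every sample. Of the 5 neuronal markers, all tested, limma called 0 over all samples (smallest adjusted p = 0.314), while the effects on *Dcx* and *Rbfox3* differed between the sets of numbers. The sum of the 5 was 13.3 to 40.1 CPM in *GFP*-NSPCs and 12.8 to 24.4 CPM in *Dbx2*-NSPCs in numbers 1 to 4, and 14.4 to 24.6 and 27.6 to 41.5 CPM in numbers 5 to 8. The mural and fibroblast list summed to at most 6.1 CPM over 6 genes, and *Acta2*, the tested gene, had a log2 change of 1.25 (adjusted p = 0.112). *Acta2* was at 1.08 to 5.14 CPM in *Dbx2*-NSPC replicates 1 to 4 and at no more than 0.41 CPM in the other samples, and its effect differed between the sets (adjusted p = 0.00455). *Mobp* of oligodendrocytes, *Flt1* of endothelium, and *Rarres2* and *Ccdc153* of the ependyma were higher in *Dbx2*-NSPCs, at means of 2.49, 6.84, 5.75 and 5.41 CPM, and their part in the results above was not tested. The endothelial list summed to 0.67 to 11.7 CPM over 6 genes in *GFP*-NSPCs and to 4.81 to 19.6 CPM in *Dbx2*-NSPCs, with *Cdh5* and *Cldn5* at 0. The ependymal list summed to 10.3 to 25.8 and 21.9 to 44.9 CPM over 4 genes, with *Tmem212* at 0, and the oligodendrocyte list to 3.68 to 8.87 and 7.06 to 15.3 CPM over 5 genes, with *Mog* at 0.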

How the data were processed

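RNA of 8 *GFP*-NSPC and 8 *Dbx2*-NSPC samples had been made into QuantSeq 3' libraries from 100 ng each and sequenced as single reads of 101 bases. Per the methods and labels, the authors trimmed reads with bbduk, aligned them with STAR 2.5.0a to GRCm38 (mm10) with Ensembl 96 annotation, and used FastQC 0.11.8 and edgeR 3.36. The counting tool and strand setting are not given in the sources used here. The authors deposited CPM rounded to 2 decimals, with no scaling beyond the total, and all columns were used (0 left out). Whole reads were recovered for at least 99.97% of the values above 0 in each sample, within a tolerance of 0.005 CPM plus 0.02 of the worth of 1 read.

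The labelled transgene set the groups. The filter kept genes above 1 CPM in 4 or more of the 16 samples, and limma 3.58.1 (R 4.3.3, lmFit and eBayes with trend) was run on log2(CPM + 0.5), with Benjamini-Hochberg adjustment over 12533 genes and a threshold of 0.05. The study fitted the cell line as a covariate, which the labels do not give. Same-numbered samples correlated at 0.152 to 0.303 in their deviations from the group means, over all 8 pairs. In 4 of the 8 pairs the same-numbered sample was the best match. The replicate numbers were taken as pairing the samples, which the labels do not state. Within numbers 1 to 4 and 5 to 8 the same correlations were -0.007 to 0.119, and the division into these sets of numbers was known from earlier results of these data. The samples were called biological replicates, and p-values measure the spread between these cultures. The cultures come from few lines, so the p-values do not measure the spread between independently made lines. The members and lists were chosen with earlier results of these data known. All members were named by role, with the lowest, median and highest value for the 14 with the smallest adjusted p and for genes of a tested ratio, and at most the 3 called genes with the largest change for each further list. Positions came from GENCODE M21, and promoters from RefSeq on GRCm38.p6. Alternatives were pseudocounts of 0.1 and 2, other filters and scalings, eBayes without trend, the block, the division of the numbers as a covariate or as separate sets, leaving out a sample, and the count models of edgeR 4.0.16 and of DESeq2 1.42.0 on whole reads. Leaving out *Dbx2*-NSPC replicate 4 and the subtraction of neighbouring genes were chosen after the values had been seen. The fits were tested on simulated counts drawn independently for each sample, without differences between lines. That test therefore does not cover the few lines of these data.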

Additional observations from a re-analysis of the deposited data

Results flagged for a closer look

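In 4 of the 68 groups of 8 values checked, the highest or lowest sample stood apart from the others by a gap that was large against the whole range of the group, and chance gives about 1 in 20. *Slc2a1* in *Dbx2*-NSPC replicate 4, at 5.02 CPM, had a gap of 0.657 of the range. *Hk1* in the same sample, at 145 CPM, had a gap of 0.571. *Hk2* in *GFP*-NSPC replicate 8, at 28.8 CPM, had a gap of 0.539, and *Pfkm* in *Dbx2*-NSPC replicate 1, at 70.0 CPM, had a gap of 0.673. The transgene effect differed between numbers 5 to 8 and numbers 1 to 4 for 5 genes, by limma's interaction test. The difference on the log2 scale was 2.15 for *Slc2a3* (adjusted p = 0.00422), -0.53 for *Ldha* (0.0196), -2.17 for *Eno1* (4.11e-07), -1.74 for *Pgd* (1.71e-07) and -1.48 for *Pfkl* (3.16e-04).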

How the results depend on the processing

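The 3 higher and 1 lower calls were counted again under 15 other settings. *Slc2a1*, *Pdk3* and *Pkm* stayed past the threshold in all of them and *G6pdx* in all but numbers 1 to 4 alone. With the replicate block, and with the division of the numbers as a covariate, 5 members were higher and 3 were lower. In numbers 1 to 4 alone 7 were higher, and in numbers 5 to 8 alone 5 were lower. The lower count was 2 without *GFP*-NSPC replicate 1 and 2 without *Dbx2*-NSPC replicate 4, which added *Pfkfb3* and *Tkt* respectively. The block did not remove a call of the 4. The count of called ratios was 2 with the replicate block, and 0 in either set of numbers alone, where 4 against 4 samples could pass only if at least 5 of the 8 ratios reached the smallest p together. Over all tested genes limma called 1982 without the block and 3034 with the division as a covariate. Signs turned in numbers 1 to 4 for *Slc2a3* (-0.24), *Egln3* (0.039), *Ldha* (0.14), *Slc16a1* (-0.15), *Pgd* (0.78), *Pdk1* (0.62), *Aldoa* (0.12) and *Hk2* (0.14), and for the ratios *Pfkp* to *Pfkl* (-0.041), *Ldhb* to *Ldha* (-0.13) and *Pdk1* to *Pdk2* (0.33). They turned in numbers 5 to 8 for *P4ha1* (-0.067), *Vegfa* (-0.14), *Eno1* (-0.96), *Eno2* (0.89), *Gapdh* (0.23), *Gpi1* (-0.027), *Pfkl* (-0.47), *Pfkm* (0.032) and *Tpi1* (-0.036), and for *Eno2* to *Eno1* (1.85). *Gapdh* turned with edgeR (0.095) and DESeq2 (0.097). Without *GFP*-NSPC replicate 1 or without *Dbx2*-NSPC replicate 4, the log2 change ran from -0.18 to 0.040 for *Eno2*, from -0.15 to 0.017 for *Pgam1* and from -0.076 to 0.25 for *Gapdh*, and *Pgam1* turned with DESeq2 (7.31e-04). *Pdk1* turned with a pseudocount of 2 (0.011), TMM (0.0066), median-of-ratios scaling (0.0082), edgeR (0.11) and DESeq2 (0.11). The cause of these changes was not tested. None of the settings moved the median of all genes by more than 0.03.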
